A study of Homo sapiens with 6 samples.

Results

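The 36 genes described here are known from breast cancer work to respond to estrogen, outside the small group of target genes most often shown. Binding of estrogen receptor alpha (ERα) was read around each of them. A peak belongs to a gene when its summit lies inside the gene or within 25 kb of its RefSeq span, and 1950 of the peaks listed in 6 libraries do. They fall in 457 of the 175206 merged regions of the series. RNA was not measured in these lists, so the values below are levels of binding, and whether a gene responded is not shown by them.

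The libraries are ERα chromatin immunoprecipitations from MDA-MB-453, a breast cancer line with an androgen receptor and little ERα of its own, made to express an introduced receptor when doxycycline is added. The receptor was wild type (WT), Y537S, a change in the ligand-binding domain, or K303R, a change in the hinge. Each was studied after 2 days in doxycycline alone at 2 µg per mL, or in doxycycline with 1 nM estradiol (E2). That makes 6 groups: WT without E2, WT with E2, Y537S without E2, Y537S with E2, K303R without E2 and K303R with E2. All 6 shared McCoy's medium with 10% serum, which the labels do not describe as stripped of steroids, and doxycycline. Chromatin came from 2 plates and each group has 1 library. No comparison therefore has a replicate check: every interval covers counting error only, and every call compares 2 libraries, not 2 conditions. The labels do not say whether each receptor line is 1 clone. The peak names of both Y537S lists carry a different date-like tag from the other 4, so wherever Y537S is set against another receptor, the receptor and that tag cannot be told apart.

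ERα is a nuclear receptor that binds DNA as a dimer and, once estradiol fills its pocket, exchanges corepressors for coactivators. Its classical site, the estrogen response element (ERE), is an inverted repeat of GGTCA and TGACC, but much of its binding lies at distal enhancers that FOXA1 and GATA3 help to open, and some is carried by other factors bound to DNA. Y537S is found in metastases after endocrine treatment and holds the receptor in an active shape without hormone, while K303R removes a lysine that is modified in the wild-type protein.

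Of the 36 genes, 29 had a promoter entry in RefSeq (GRCh38.p14). Those of 4 genes are shown, chosen after their values were seen: each has a well-covered region at its start and summits of at least 4 libraries in the promoter window, which holds up to 50 bases past the start. MYB, AGR2 and OLFM1 also had summits of 4 libraries there, in regions that were not well covered. Each line gives the 250 bases before the start on the gene's strand, and capitals mark GGTCA or its complement TGACC.
CTSD, chr11:1763928-1764177, minus strand: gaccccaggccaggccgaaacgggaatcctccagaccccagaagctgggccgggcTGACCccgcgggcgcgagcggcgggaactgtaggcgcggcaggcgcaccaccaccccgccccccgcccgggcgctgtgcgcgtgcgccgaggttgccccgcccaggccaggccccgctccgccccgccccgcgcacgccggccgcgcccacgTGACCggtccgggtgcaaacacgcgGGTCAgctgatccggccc
FHL2, internal start, chr2:105399052-105399301, minus strand: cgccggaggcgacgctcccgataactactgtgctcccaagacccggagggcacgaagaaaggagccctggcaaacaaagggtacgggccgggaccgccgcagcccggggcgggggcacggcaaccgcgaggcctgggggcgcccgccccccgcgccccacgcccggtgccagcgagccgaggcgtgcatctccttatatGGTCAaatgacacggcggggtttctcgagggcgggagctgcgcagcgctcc
AREG, chr4:74444886-74445135, plus strand: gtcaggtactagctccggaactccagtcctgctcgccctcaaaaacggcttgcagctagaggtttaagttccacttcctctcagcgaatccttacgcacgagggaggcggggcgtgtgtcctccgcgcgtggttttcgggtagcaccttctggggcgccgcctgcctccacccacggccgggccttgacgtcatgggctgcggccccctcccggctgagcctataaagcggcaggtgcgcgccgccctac
SGK1, internal start, chr6:134174867-134175116, minus strand: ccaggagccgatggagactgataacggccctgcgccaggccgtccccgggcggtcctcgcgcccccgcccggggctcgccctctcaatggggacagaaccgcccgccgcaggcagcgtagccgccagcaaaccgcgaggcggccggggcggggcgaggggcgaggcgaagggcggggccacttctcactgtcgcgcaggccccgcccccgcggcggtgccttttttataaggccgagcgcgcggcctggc
In the CTSD sequence the core stood 195, 43 and 18 bases before the start, and the summits of 5 libraries lay 245 to 202 bases before it. At FHL2 the core stood 51 bases before the start, with summits of all 6 libraries 169 to 97 bases before it. AREG and SGK1 had no core in these letters, although 4 libraries had a summit between 15 bases before and 33 bases after the AREG start, and all 6 had one 233 to 178 bases before the SGK1 start.

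Searched on both strands of windows from 250 bases before to 50 after a start, the full ERE, with 3 free bases between GGTCA and TGACC, was in 0 of the 42 promoters of these genes, against 0.0572% of 34943 promoters. The core GGTCA, which is part of the ERE, was in 13 of 42, against 37.4%. The AP-1 letters TGANTCA were in 0 of 42, against 7.72%, and the forkhead letters TGTTTAC in 1 of 42, that of MYB, against 3.42%. AP-2 letters GCCNNNGGC were in 10 of 42, against 23.2%, and the GC box GGGCGG in 27 of 42, against 44.9%. The androgen or glucocorticoid type of inverted repeat was in 0 of 42 and in 1 of all promoters. These matches describe promoters only, since the letters under distal regions were not analysed here.

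Recurrence across libraries was somewhat above that of the whole series near these genes, where more regions were also well covered, as defined below. Of the 457, 203 (44.4%) were in all 6 lists, against 38.7% of all merged regions, and 72 (15.8%) were in a single list, against 21.7%. A gene had 3 to 27 regions, with a median of 11.5. TPD52L1 had 27, BCL2 and FHL2 24 each, RERG 23 and NHERF1 22, and UGCG had 3. Most of these regions were not at the start: 237 lay inside the gene's span and 220 outside it, 39 of the latter inside another coding gene, and 28 of the 359 whose gene has a known start lay within 1 kb of it.

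**Figure D1:**
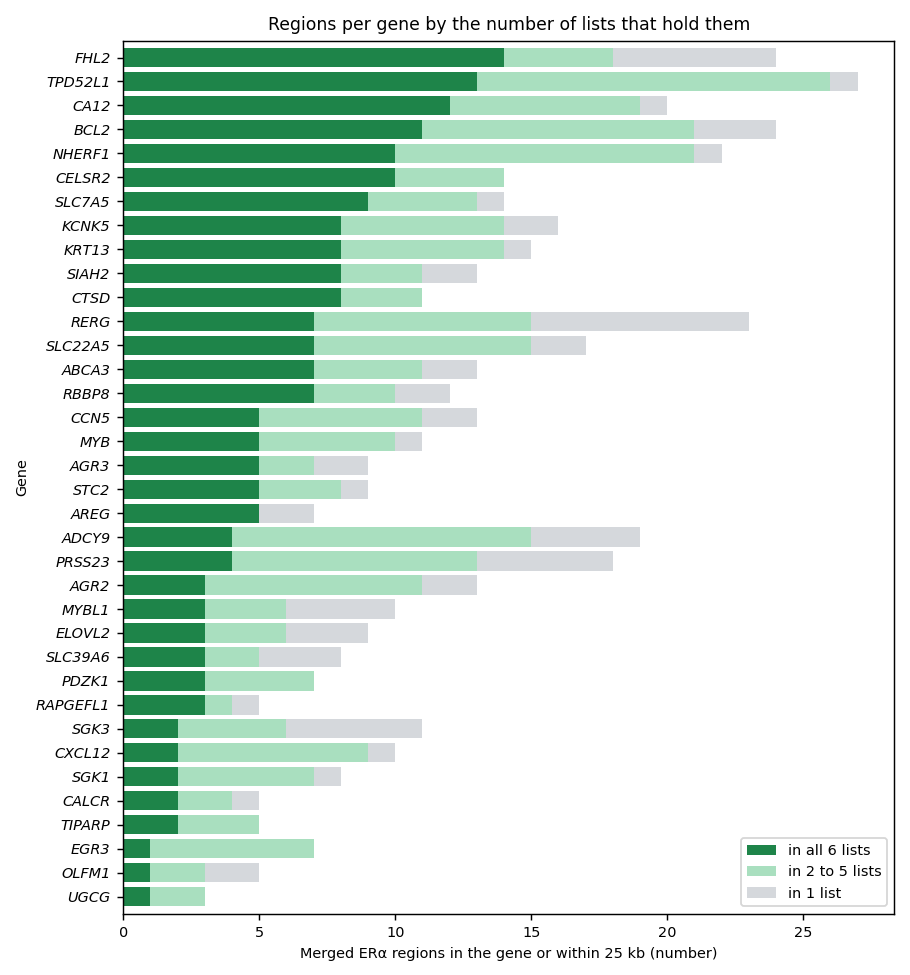
Number of merged ERα regions for each of the 36 genes (horizontal axis), split by whether a region was in all 6 lists, in 2 to 5 or in 1. TPD52L1 had 27 regions and UGCG 3, and FHL2 had 14 in all 6 lists.

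A region was called strong in a library when it was among the 10000 with the highest −log10 p there. By that measure 22 of 36 genes lay near a strong region in WT without E2 (29.7% of all coding genes do) and 25 with E2 (29.7%). For Y537S it was 20 genes (31.7%) and 19 (31.5%), and for K303R 23 (32.1%) and 24 (32%). Every one of the 36 had some listed region in each library, as did 90.7% and 90.1% of coding genes in WT, 90.8% and 89.7% in Y537S, and 89.4% and 89% in K303R. Near a strong region in all 6 libraries were 16 genes (44.4%, against 22% of coding genes), in at least 1 library 26 (72.2%, against 40.7%), and in none 10. These shares do not allow for gene length. Of 13 better-known estrogen receptor targets and luminal cofactors read for strong regions in the same way (GREB1, PGR, TFF1, TFF3, XBP1, RARA, IGFBP4, FKBP4, RET, CCND1, MYC, GATA3 and FOXA1), 8 lay near one in all 6 libraries and 1, FOXA1, in none.

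For each gene the lead region is the one with the highest mean number of fragments at its summit among regions in all 6 lists. The lists held 106186 to 125850 regions each, with medians of 73 to 112 summit fragments over the well-covered regions defined below, lowest in K303R without E2. The total number of reads was not given in the sources used here. The counts of fragments were solved from the authors' fold enrichment and p-value, so they hold both binding and local background. Of the 36 lead regions, 19 lay inside the gene and 17 outside, and only 4 of the 29 with a known start lay within 1 kb of it (those of PDZK1, TIPARP, UGCG and SGK1). The highest was at NHERF1, where 369 to 435 fragments were counted, and the lowest at UGCG, with 10 to 21.

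**Figure D2:**
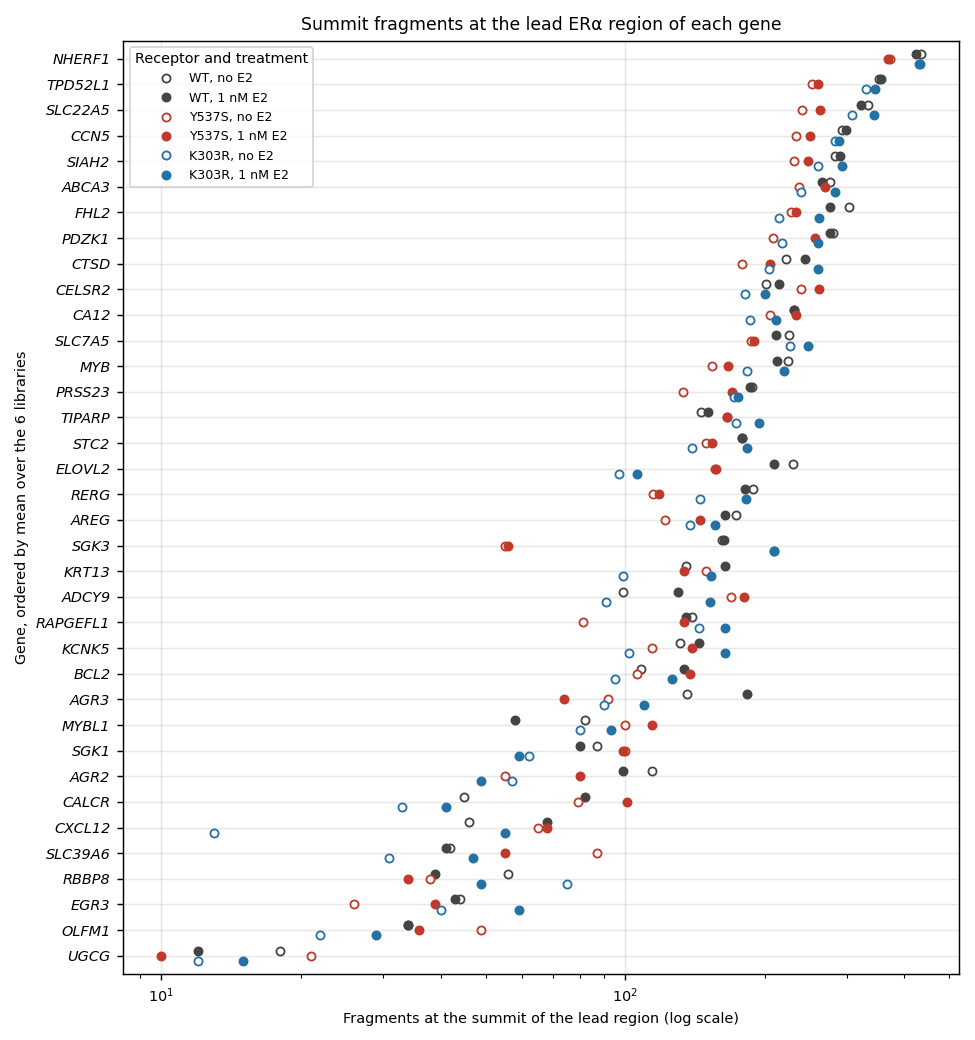
Fragments at the summit of the lead region (log scale) for each gene, with 1 point for each of the 6 libraries, open without E2 and filled with E2. The genes run from NHERF1, at 369 to 435, down to UGCG, at 10 to 21.

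Comparisons of level used ratios of summit fragments, centred on the ratio of the 2 libraries' medians over the 33626 well-covered regions of the series, which are in all 6 lists with a mean of at least 50 fragments. Of the 457 regions, 133 were well covered (29.1%, against 19.2% of all), and of the lead regions 32 were (not those of UGCG, OLFM1, EGR3 and RBBP8). A call needed a ratio beyond 1.5-fold whose exact counting interval, drawn to leave out 1 chance in 1000, did not hold 1. Intervals printed here are 95%. A region reaches 133 only where every library has it, so a loss below the threshold of a list is not among these calls.

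Few regions near these genes were called between treatments when libraries were centred on the median region. With background scaling, described below, the calls became 4 higher in WT, and 18 higher and 0 lower in K303R. Shares of all regions called on that scale are not given here, so those counts cannot be set against the series. With WT and the main centring, 1 of 133 was called higher with E2 (1.55% of all well-covered regions are) and 0 lower (0.684%), and the median ratio was 0.980, against 0.993 over all. With Y537S 0 were called higher (0.0862%) and 1 lower (0.0833%), at a median of 0.994 against 0.993. With K303R 1 was called higher (2.05%) and 1 lower (1.05%), at a median of 0.964 against 0.978. Listed regions near the 36 genes were 4 fewer with E2 in WT, 12 fewer in Y537S and 2 fewer in K303R (exact two-sided sign-flip test, p = 0.25, the smallest that 3 receptors allow). Among the 32 well-covered lead regions the 95% interval held 1 in 29 with WT, 29 with Y537S and 25 with K303R.

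**Figure D3:**
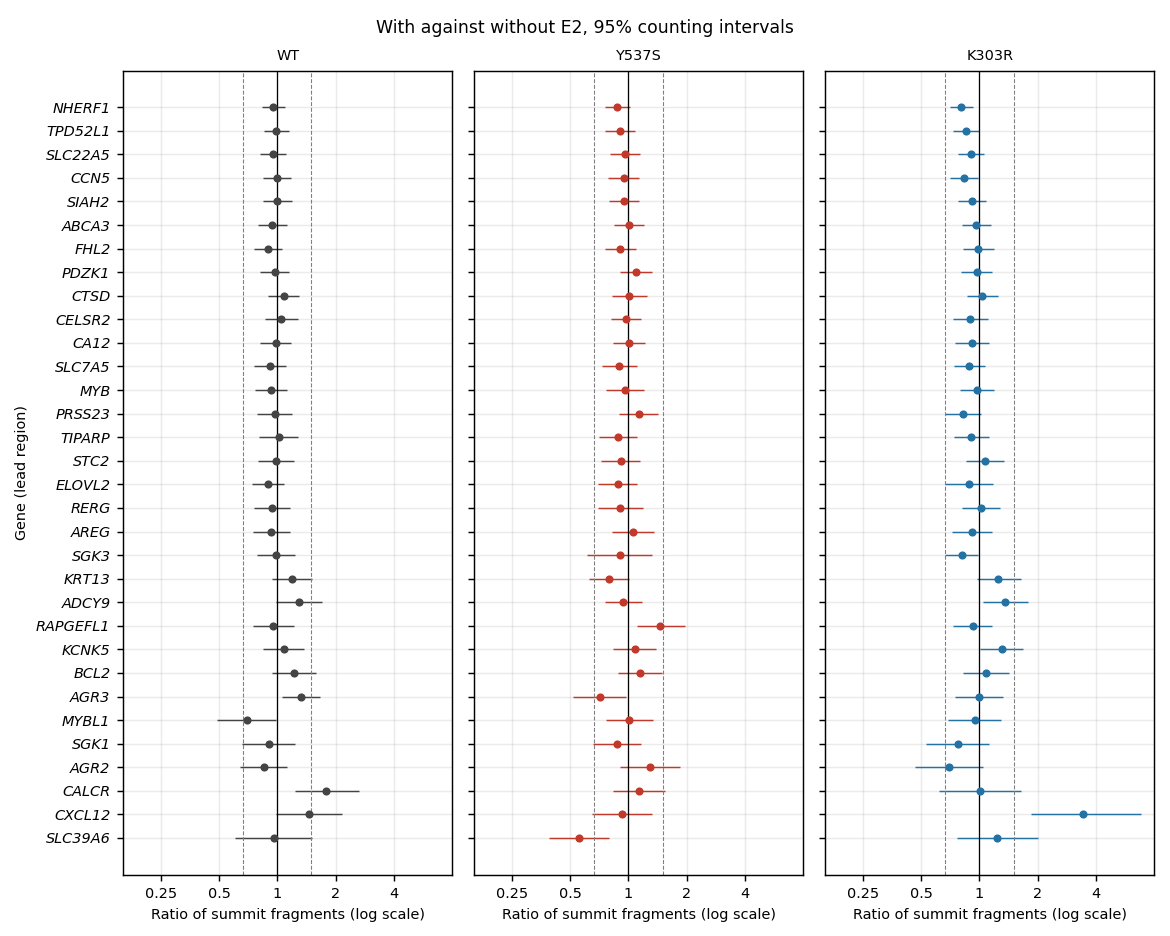
Ratio of summit fragments with against without E2 (log scale) at the 32 well-covered lead regions, 1 panel for each receptor, with 95% counting intervals and dashed lines at 1.5-fold either way. Most intervals hold 1, and CXCL12 with K303R (3.43) and SLC39A6 with Y537S (0.559) are the points called.

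The 4 regions called for E2 lay at BCL2, CXCL12 and SLC39A6. At CXCL12, a chemokine gene whose receptor is CXCR4, the lead region (chr10:44352792-44353340, 17070 bases outside the gene) had 46 and 68 fragments in WT without and with E2, 65 and 68 in Y537S, and 13 and 55 in K303R. The K303R library without E2 stood below the other 5. The ratio with E2 was 3.43 (1.85 to 6.85) in K303R, 1.45 (0.982 to 2.16) in WT and 0.925 (0.648 to 1.32) in Y537S. The E2 ratio in K303R was 3.71 times that in Y537S (exact test on the counts of 4 libraries, Benjamini-Hochberg adjusted p over 33626 regions = 0.0322), a difference found at 0.812% of all regions and at no other of the 133. E2 ratios differed between WT and Y537S at 0 of the 133 (0.259% of all regions) and between WT and K303R at 0 (0.00595%).

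SLC39A6, a zinc transporter of luminal breast cells, had its lead region at chr18:36092484-36093025, with 42 and 41 fragments in WT, 87 and 55 in Y537S, and 31 and 47 in K303R. The Y537S library without E2 stood highest. Its ratio with E2 was 0.559 (0.391 to 0.792) in Y537S, and without E2 Y537S was 2.09 times WT (1.43 to 3.10). In BCL2, which encodes an inhibitor of cell death, a region inside the gene at chr18:63241140-63242137 had 87 and 145 fragments in WT, 68 and 110 in Y537S, and 61 and 64 in K303R, for an E2 ratio in WT of 1.63 (1.24 to 2.16). That call was lost when peaks were joined only where their summits lay within 100 bases. A second BCL2 region, chr18:63254648-63255334, had 76 and 89, 77 and 99, and 71 and 43, with an E2 ratio of 0.491 (0.328 to 0.727) in K303R, and that call was lost (0.646) when libraries were scaled by their lowest local background.

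More of these regions were called between receptors than between treatments. For Y537S against WT without E2, 9 of 133 were called higher (8.05% of all regions) and 18 lower (9.15%), and with E2 8 were higher (6.06%) and 16 lower (8.59%). In both treatments 2 were higher (3.34%) and 9 lower (4.79%). The median ratio was 0.890 without and 0.911 with E2, against 0.959 and 0.958 over all regions. K303R against WT had 8 higher (5.49%) and 9 lower (5.86%) without E2, and 9 higher (6.33%) and 11 lower (7.89%) with E2, with 3 higher (2.58%) and 7 lower (3.54%) in both. Its median was 1.12 and 1.10, against 1.03 and 1.03. Both mutants are set against the same WT libraries.

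These ratios are relative to the median well-covered region. Scaled by the lowest local background of each library instead, the median of all regions lay at log2 values of 0.22 and 0.12 for Y537S against WT, -0.39 and -0.09 for K303R against WT, and 0.36 for E2 in K303R. The median of the 133 then lay at 0.11 and 0.05 for Y537S, -0.27 and 0.01 for K303R, and 0.34 for E2 in K303R. That scaling multiplies every ratio of a comparison by the same factor, so it cannot change how the 133 stand against all regions. The sign against 1 turned for Y537S in both treatments and for K303R without E2. The balance of calls turned with it: in both treatments 7 regions were then higher and 4 lower in Y537S, and 0 higher and 11 lower in K303R. The median of all regions moved too. Shares of all regions called on that scale are not given here, so these counts cannot be set against the series.

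**Figure D4:**
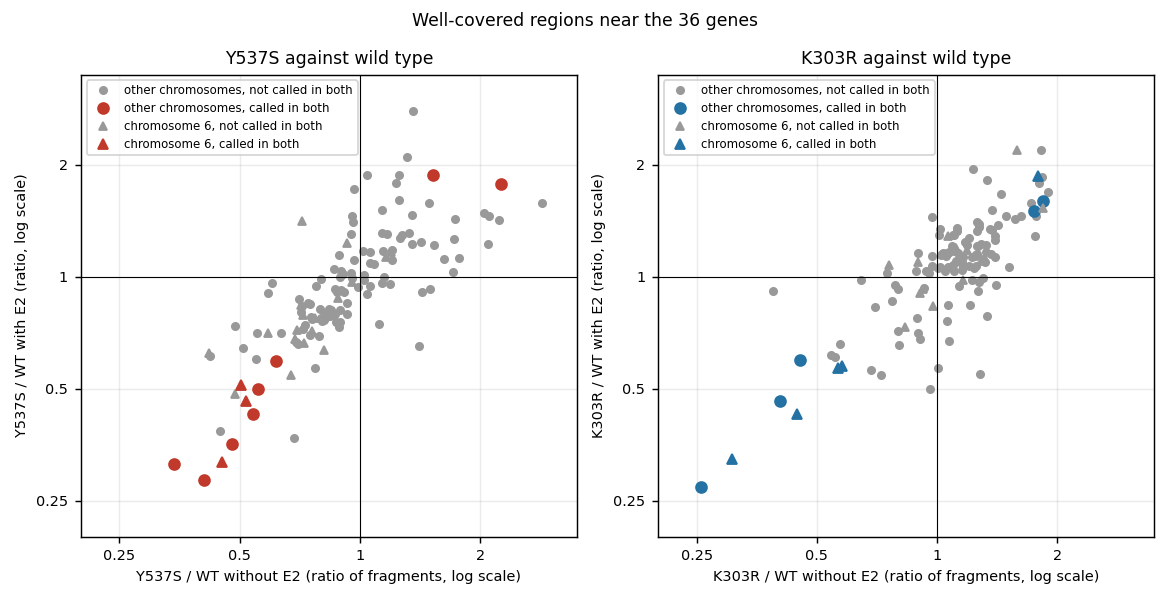
Ratio to WT without E2 (horizontal, log scale) and with E2 (vertical, log scale) of the 133 well-covered regions, for Y537S and K303R, with coloured points for regions called the same way in both treatments and triangles for chromosome 6. For Y537S 9 coloured points lie low and 2 high, and for K303R 7 low and 3 high.

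Chromosome 6 holds 5 of the genes, TPD52L1, ELOVL2, MYB, SGK1 and KCNK5, with 21 of the 133 regions. Y537S against WT had a median of 0.717 and 0.714 at these 21 regions without and with E2, and 0.756 and 0.765 over all well-covered regions of the chromosome. At the 112 regions on other chromosomes it was 0.929 and 0.942. Of the 9 regions low in both treatments 3 lay on chromosome 6 and 6 elsewhere. Centred on their own chromosome instead of on all regions, the 133 regions had a median log2 ratio of -0.08 and -0.05 in place of -0.17 and -0.13.

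**Figure D5:**
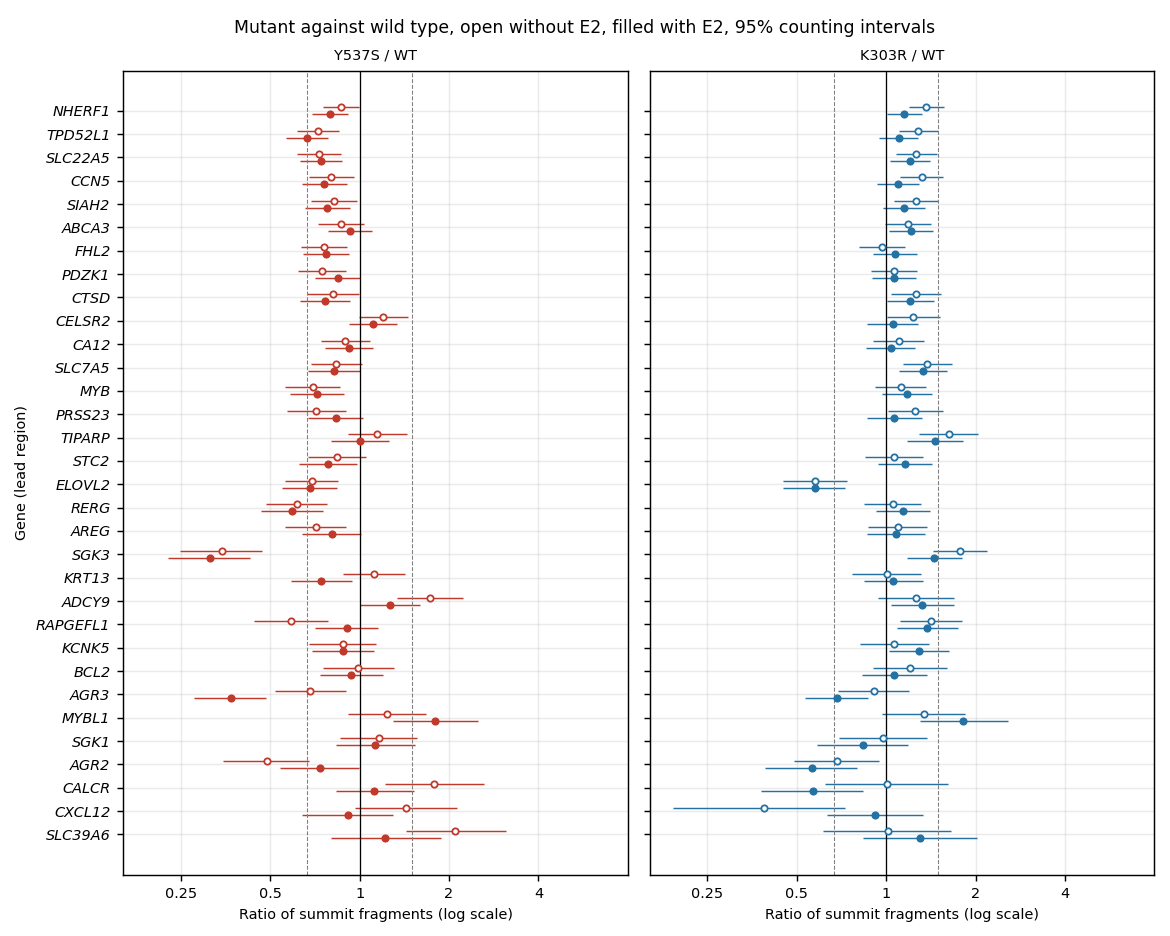
Ratio to WT (log scale) of the 32 well-covered lead regions for Y537S and K303R, open without and filled with E2, with 95% counting intervals and dashed lines at 1.5-fold. SGK3 lies lowest for Y537S (0.343 and 0.313), and ELOVL2 is low for K303R in both treatments (0.578 and 0.575).

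Transporter and channel genes held 68 regions, 23 of them well covered, and ABCA3, SLC22A5 and SLC7A5 lay near a strong region in all 6 libraries. ABCA3 moves lipids across membranes, and its lead region inside the gene (chr16:2329487-2330105) had 276 and 265 fragments in WT, 237 and 270 in Y537S, and 239 and 284 in K303R. These lie close together, and no comparison was called. SLC22A5, the carnitine transporter, had 334 and 323, 241 and 263, and 308 and 344 at chr5:132378188-132379119 inside the gene. Both Y537S libraries were lowest, at 0.729 (0.615 to 0.863) and 0.742 (0.628 to 0.875) of WT, under the fold needed for a call. Closer to its start, chr5:132371018-132371647 had 91 and 94, 82 and 94, and 122 and 133. There K303R was called higher, at 1.84 (1.39 to 2.44) and 1.60 (1.22 to 2.11).

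SLC7A5 imports large neutral amino acids. Its lead region, 22874 bases outside the gene, had 187 to 248 fragments, with no call. Inside the gene, chr16:87845881-87846380 had 55 and 69 in WT, 123 and 135 in Y537S, and 49 and 69 in K303R. Both Y537S libraries stood above the other 4, at 2.26 (1.63 to 3.16) and 1.78 (1.32 to 2.42) times WT, and its geometric mean ratio was the higher of the 2 regions called higher in both treatments. The potassium channel gene KCNK5 had a lead region inside the gene with 102 to 164 fragments and no call. Just outside it, chr6:39187480-39188114 had 76 and 89, 34 and 31, and 51 and 73, so that Y537S was 0.452 (0.292 to 0.686) and 0.317 (0.204 to 0.482) of WT. Further out, at chr6:39170572-39171528, K303R was called higher, at 1.79 (1.29 to 2.48) and 1.86 (1.32 to 2.64). That region had 69 and 56 fragments in WT, 49 and 87 in Y537S, and 90 and 92 in K303R. With background scaling the K303R calls at KCNK5 and SLC22A5 were lost, as was the Y537S call at KCNK5 without E2 (0.548). The latter was also lost (0.598) when ratios were centred on chromosome 6. The K303R call at SLC22A5 with E2 was also lost (1.55) when centred on the median of the ratios, where its calling interval held 1.

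Scaffold, adhesion and structural genes held 85 regions, 33 well covered. NHERF1 and PDZK1 encode PDZ scaffolds that hold membrane proteins in place, CELSR2 an adhesion protein of the cadherin family, and TPD52L1 a member of the tumor protein D52 family. All 4 lay near a strong region in every library. NHERF1, at chr17:74760510-74761355 inside the gene, had 435 and 423 fragments in WT, 372 and 369 in Y537S, and 433 and 430 in K303R, and 6 strong regions in each library. The 435 was the highest summit count of the whole WT list without E2, yet its local background was 53.1 fragments, so the region was 8.05-fold over background by the authors' value. PDZK1 had 281 and 277, 208 and 257, and 218 and 260 at a region 947 bases before its start, with no call. CELSR2 had 181 to 262 fragments inside the gene, highest in both Y537S libraries before centring, and again no call. After centring, its ratio to WT without E2 was 1.20 in Y537S and 1.23 in K303R. For KRT13, a keratin, no region lay inside the gene, and its lead region (99 to 164 fragments) lay in KRT19, which encodes another keratin.

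TPD52L1 had the most regions, 27, of which 10 were well covered. Its lead region, chr6:125201994-125202652, had 353 and 356 fragments in WT, 253 and 260 in Y537S, and 331 and 346 in K303R. The Y537S libraries were lowest, at 0.724 (0.614 to 0.853) and 0.665 (0.565 to 0.783), the latter called. That call was lost when centred on chromosome 6 (0.869) or on the median of the ratios (0.694), or scaled by background (0.755). In 3 other regions of the gene K303R was called lower in both treatments. At chr6:125180954-125181581 the counts were 76 and 77 in WT, 72 and 82 in Y537S, and 17 and 22 in K303R. K303R was 0.306 (0.170 to 0.523) and 0.324 (0.192 to 0.526) of WT there, and Y537S 0.957 and 0.970. At chr6:125248240-125248867 K303R was 0.446 and 0.427 of WT, and Y537S 0.928 and 1.23. At chr6:125209605-125210139 K303R was 0.565 and 0.567 and Y537S 0.671 and 0.545, the last of these also called, and lost with chromosome centring (0.713). The 3 regions lie within the same gene as the lead region, whose K303R ratio was 1.28 and 1.10.

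Enzyme genes held 98 regions, 30 well covered, and ELOVL2, CA12, CTSD, TIPARP and SIAH2 lay near a strong region in all 6 libraries. ELOVL2 lengthens polyunsaturated fatty acids. Its lead region, chr6:11067224-11067922, 23207 bases before the start, had 230 and 209 fragments in WT, 157 and 156 in Y537S, and 97 and 106 in K303R. The receptors did not overlap here, and K303R was called at 0.578 (0.451 to 0.736) and 0.575 (0.451 to 0.730). Local background ran the same way, at 8.83 and 7.78, 5.60 and 6.23, and 4.67 and 4.17 fragments. Nearer the start, chr6:11053304-11053944 had 107 and 116, 55 and 59, and 65 and 75. Y537S was 0.519 (0.368 to 0.725) and 0.463 (0.333 to 0.639) of WT there, a call lost with chromosome centring (0.687 and 0.605) and, without E2, with background scaling (0.630).

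SIAH2, a ubiquitin ligase, had regions that moved in different directions. Its lead region, 3670 bases outside the gene, had 231 to 294 fragments and no call. Inside the gene, chr3:150756344-150757046 had 116 and 123 fragments in WT, 55 and 48 in Y537S, and 148 and 163 in K303R. It was the only region of the 133 called lower in Y537S, at 0.479 (0.341 to 0.666) and 0.355 (0.249 to 0.50), and higher in K303R, at 1.75 (1.36 to 2.25) and 1.502 (1.18 to 1.91), in both treatments. The K303R calls, not the Y537S ones, were lost with background scaling, and the one with E2 also when centred on the median of the ratios (1.453). Local background ran the same way, at 8.71 and 8.00, 4.41 and 4.26, and 10.1 and 10.0 fragments. Outside the gene, chr3:150722708-150723257 had 105 and 83, 99 and 119, and 31 and 34, and K303R was lower there, at 0.404 (0.262 to 0.609) and 0.464 (0.302 to 0.700).

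CA12, a carbonic anhydrase of the cell surface, had 186 to 233 fragments at its lead region inside the gene, with no call. Deeper in the gene, chr15:63344749-63345550 had 119 and 110 in WT, 180 and 227 in Y537S, and 106 and 95 in K303R, and Y537S was 1.53 (1.21 to 1.94) and 1.88 (1.49 to 2.38) times WT. The lysosomal protease gene CTSD had its lead region 8807 bases before the start, with 179 to 260 fragments and no call. PRSS23, a serine protease gene, had 133 to 188 fragments at its lead region without a call. At chr11:86776123-86776710, 14656 bases before its start, the counts were 167 and 190, 92 and 104, and 98 and 110. Y537S was 0.556 (0.427 to 0.722) and 0.498 (0.389 to 0.636) of WT, of which the first was lost with background scaling (0.675), and K303R was 0.804 and 0.656.

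TIPARP, an ADP-ribosyltransferase gene also known as a target of the dioxin receptor, had its lead region 347 bases before a start. Its counts were 146 and 151 in WT, 166 and 166 in Y537S, and 173 and 194 in K303R. Both K303R libraries were highest, at 1.62 (1.29 to 2.04) and 1.46 (1.17 to 1.81), of which the first was called, and was lost with background scaling (1.20). ADCY9, an adenylyl cyclase gene, had 99 and 130, 169 and 180, and 91 and 152 fragments at chr16:4133585-4134505. Y537S was called without E2 only, at 1.72 (1.34 to 2.23) against 1.26 (1.00 to 1.59) with E2. UGCG, which makes glucosylceramide, had 10 to 21 fragments at its start and no well-covered region.

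Secreted proteins, proteins of the secretory pathway and receptors held 71 regions, 17 well covered, and CCN5 alone lay near a strong region in all 6 libraries. CCN5 encodes a matrix-associated protein of the CCN family. Its lead region lay 63 bases outside the gene (chr20:44714213-44715098) and had 294 and 299, 234 and 250, and 283 and 289 fragments, lowest in Y537S at 0.804 (0.674 to 0.958) and 0.761 (0.641 to 0.904), without a call. STC2, a secreted glycoprotein gene, had 139 to 183 fragments at its lead region, also without one. AREG encodes a ligand of the epidermal growth factor receptor. Its lead region, 20233 bases outside the gene, had 122 to 173 fragments and no call, but chr4:74456133-74456668, 1394 bases outside it, had 75 and 75 in WT, 56 and 64 in Y537S, and 14 and 18 in K303R. Both K303R libraries stood far below the other 4, at 0.256 (0.133 to 0.456) and 0.272 (0.153 to 0.460) of WT, the lowest pair of ratios among the regions called for K303R.

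AGR2 and AGR3 are neighbouring genes for protein disulfide isomerases of the endoplasmic reticulum. At AGR2, the lead region (chr7:16787010-16787538) had 114 and 99 in WT, 55 and 80 in Y537S, and 57 and 49 in K303R. All 4 mutant libraries lay below both WT libraries. Y537S was 0.487 (0.347 to 0.678) without E2, a call lost with background scaling (0.591), and K303R 0.561 (0.390 to 0.798) with E2. Beside it, chr7:16785743-16786328 had 92 and 93, 37 and 29, and 60 and 58, and Y537S was called in both treatments, at 0.406 (0.270 to 0.601) and 0.284 (0.180 to 0.435). AGR3 had 136 and 183, 92 and 74, and 90 and 110 at chr7:16880515-16881070. Y537S with E2 was called, at 0.368 (0.277 to 0.485).

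CALCR, the calcitonin receptor gene, had 45 and 82 fragments in WT, 79 and 101 in Y537S, and 33 and 41 in K303R at a region inside the gene (chr7:93438282-93438944). Its E2 ratio in WT, 1.79 (1.23 to 2.63), was not called with the main scaling and was with background scaling (1.91). OLFM1, an olfactomedin gene, had 22 to 49 fragments and no well-covered region.

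Kinases and other signalling genes held 71 regions, 15 well covered. SGK3, a lipid-activated kinase gene, showed the lowest lead ratio for Y537S. Its lead region (chr8:66713768-66714733), which also lies in the readthrough gene C8orf44-SGK3, had 162 and 163 fragments in WT, 55 and 56 in Y537S, and 209 and 209 in K303R. The receptors did not overlap, while E2 moved none of them by a called amount. Y537S was 0.343 (0.248 to 0.468) and 0.313 (0.227 to 0.426) of WT, and K303R was 1.77 (1.43 to 2.18) and 1.45 (1.18 to 1.79), the first called and lost with background scaling (1.31). Local background ran the same way, at 8.40 and 8.97, 3.84 and 3.86, and 11.5 and 12.7 fragments. Chromosome 8 as a whole had median ratios of 1.16 and 1.13 for K303R against WT.

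RERG, a small GTPase that slows growth, lay near a strong region in all 6 libraries and had 23 regions. At chr12:15216119-15217001 inside the gene the counts were 189 and 181, 115 and 118, and 145 and 182. Y537S was lowest, at 0.615 (0.483 to 0.779) and 0.594 (0.467 to 0.753), calls lost with background scaling (0.745 and 0.674). A second RERG region, chr12:15243028-15244055, had 101 and 96, 54 and 45, and 83 and 98, with Y537S at 0.540 (0.381 to 0.759) and 0.427 (0.293 to 0.614), the first of them lost on that scale (0.655). RAPGEFL1, whose protein resembles exchange factors for Rap, had 139 and 135, 81 and 134, and 144 and 164. The Y537S library without E2 stood alone below the rest, at 0.589 (0.442 to 0.780) of WT, and that call too was lost with background scaling (0.714). SGK1, a kinase gene induced by steroids, had 59 to 100 fragments at its internal start, whose letters are shown above, with no call. At BCL2 the lead region inside the gene had 95 to 138 fragments and E2 ratios of 1.22, 1.15 and 1.08 in WT, Y537S and K303R, without a call.

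Genes for transcription and DNA repair held 64 regions, 15 well covered, 12 of them at FHL2. FHL2, a LIM-domain cofactor, and MYB, a transcription factor of progenitor cells and of luminal breast cancers, lay near a strong region in all 6 libraries. At its lead region, chr2:105387041-105387637, FHL2 had 228 and 234 fragments in Y537S, 215 and 262 in K303R and 277 in WT with E2, with WT without E2 above all of these, and no call. At chr2:105391102-105391636 it had 127 and 146, 97 and 91, and 42 and 77. K303R was called lower there, at 0.453 (0.312 to 0.647) and 0.598 (0.448 to 0.793). Y537S was 0.771 without E2 and 0.568 (0.432 to 0.743) with E2, the latter also called, and lost with background scaling (0.644). MYB had 224 and 212, 154 and 167, and 183 and 220 at chr6:135182301-135182929, again without a call. At chr6:135211054-135211762 it had 235 and 215, 117 and 121, and 191 and 226, and Y537S was 0.503 (0.399 to 0.630) and 0.513 (0.407 to 0.643) of WT, the latter lost when centred on chromosome 6 (0.670). MYBL1, a relative of MYB, had 82 and 58, 100 and 114, and 80 and 93 fragments. With E2 it was called higher in Y537S, at 1.79 (1.29 to 2.50), and in K303R, at 1.82 (1.30 to 2.57), both against the lowest library, WT with E2, and the K303R call was lost with background scaling (1.65) and when centred on chromosome 8 (1.60). EGR3, an immediate early factor, had 26 to 59 fragments, and RBBP8, which trims DNA ends for repair, 34 to 75. Neither had a well-covered region.

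Some regions were listed with 1 receptor alone. Those in both WT lists and no other numbered 8 of 457 (1.75%, against 2.23% of all regions), those in both Y537S lists 13 (2.84%, against 2.31%), and those in both K303R lists 11 (2.41%, against 1.51%). A region missing from a list can still hold fragments, or be joined to a neighbour there.

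Local background lay on the same side as the ratio at each region called in both treatments. At all 9 regions lower and both regions higher in Y537S, and at all 7 lower and 3 higher in K303R, the background of both mutant libraries lay beyond that of both WT libraries in the same direction. The submitters' notes do not say whether a control library was used. Local background may therefore come from the same library and hold fragments of the peak itself, so this agreement may not be a separate observation. Its share among all called regions of the series is not given here, and the part of local background in these calls was not tested.

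All 7 regions called lower in K303R in both treatments, those of AREG, TPD52L1, SIAH2, FHL2 and ELOVL2, kept both calls under the 3 other scalings tried. None of the 3 called higher in both did so with background scaling. Of the 9 called lower in Y537S in both treatments, those of SGK3, SIAH2 and AGR2 kept both calls under all 3, as did the 2 called higher, in SLC7A5 and CA12. Background scaling and centring on the median of the ratios lower every K303R to WT ratio and raise every Y537S to WT ratio. Calls lower in K303R or higher in Y537S could therefore be lost only with chromosome centring.

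Starts themselves were often bound. Of the 29 genes with a known start 16 had a summit within 1 kb of it in all 6 libraries (55.2%). The share was 32.4% of the 15813 coding genes with a known start. In 8 of the 29 no library had one (AGR3, CELSR2, CXCL12, ELOVL2, KCNK5, NHERF1, RAPGEFL1 and SLC7A5). CTSD, whose letters are shown above, had 48 and 55 fragments at its start in WT, 100 and 88 in Y537S, and 63 and 87 in K303R. Y537S was 2.10 (1.48 to 3.03) and 1.46 (1.03 to 2.08) times WT and K303R 1.798 (1.22 to 2.67) and 1.79 (1.26 to 2.56), of which the first and the last were called, and the last was lost under each other scaling. Among the 7 well-covered regions of CTSD, 2 others were called lower in Y537S without E2. At STC2, 961 bases past the start, the counts were 55 and 28, 74 and 86, and 44 and 32. Y537S with E2 was called there, at 2.80 (1.81 to 4.45), against a WT library with E2 that held the lowest count of the 6. TPD52L1 had 296 and 285, 172 and 221, and 268 and 286 at its start. Y537S was lowest there, at 0.587 (0.484 to 0.711) without E2, a call lost with both the chromosome and the background scaling. The AREG start had 71 to 99 fragments and the FHL2 internal start 50 to 89, with no call.

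The ratio of mutant to WT had a higher median near known starts than away from them, over the series as well as here. Chromosome 8, which has no known start in the set used, was left out, and with it the regions of SGK3 and MYBL1. On the other chromosomes, the 1581 well-covered regions within 1 kb of a known coding start had a median Y537S to WT ratio without E2 of 1.09. The 30298 further away had 0.952. The 11 near-start regions of these genes had 1.15 and the 120 distal ones 0.881. For K303R without E2 the medians were 1.23 and 1.01 over those chromosomes, and 1.24 and 1.12 here.

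The 13 better-known targets and cofactors behaved in these ways at their lead regions: 0 were called for E2 with WT or Y537S, and 1, TFF3, was higher in K303R, at 1.70 (1.25 to 2.34). Y537S was lower than WT without E2 at 4 (PGR, TFF1, IGFBP4 and GATA3) and with E2 at 5 (PGR, TFF3, RARA, IGFBP4 and GATA3), and higher at 0. K303R was higher at 2 without E2 (RARA and IGFBP4), and lower at 0. Among the 32 lead regions of the genes described here Y537S was lower at 4 and higher at 2 without E2, and lower at 4 and higher at 1 with E2. K303R was higher at 2 and lower at 1 without E2, and higher at 1 and lower at 2 with E2. Of the 32 K303R ratios 26 lay above 1 in each treatment and 25 in both. Over all well-covered regions 53.9% lay above 1 without E2 and 54.3% with E2, and over the 133 regions 70.7% and 67.7%. Lead regions were chosen for their high counts, so their share is not like for like with that of all regions. The lead regions of the 13 better-known genes, chosen the same way, lay above 1 at 11 without and 12 with E2. The part of region strength in these shares was not tested. These counts use the main centring, on which the shares of all regions called are given above. With background scaling the median log2 K303R ratio of the 133 regions lay at -0.27 without and 0.01 with E2.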

How the data were processed

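The 6 libraries are ERα ChIP-seq of MDA-MB-453 cells, 1 per receptor and treatment, with 75-base paired reads per the labels' protocols. The authors deposited 1 narrowPeak list per library on hg38, and MACS2, bedtools, Picard, SAMtools and Bowtie2 are the tools in the submitters' processing notes, which give neither versions nor whether a control library was used. Each deposited list gives a score, a fold enrichment (a ratio over local background), a −log10 p-value and a −log10 q-value per peak, as the authors' peak caller wrote them, and none of these is a count. Peaks were called per library. Here the score was 10 times the −log10 q for at least 99.6% of peaks.

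Summit fragments and local background were solved from the fold, taken as (fragments + 1) over (background + 1), and the Poisson p-value. The solved whole numbers gave back the deposited p within 0.01% for 100% of peaks in every library. Peaks on chromosomes 1 to 22 and X were merged where they overlapped by 1 base. Genes were matched by symbol to RefSeq spans (GRCh38.p14, the assembly of hg38), and all 36 matched. Exons, introns and UTRs were not analysed here. Ratios carry exact conditional binomial (Clopper-Pearson) intervals, and E2 effects were compared between receptors by an exact test on the counts. Intervals and calls cover counting error only, since the labels give 1 library per group and reads without molecular identifiers are not independent molecules. The solving of fragments and the calling of ratios were tested on simulated data, and the other steps were not. The solving was tested at backgrounds below that of the NHERF1 lead region, and the calling with counting error only. The work used Python 3.11.15, NumPy 2.4.6, pandas 2.3.3, SciPy 1.17.1 and matplotlib 3.10.9.

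Named regions were each gene's lead region, regions called for E2, and up to 10 in each direction called in both treatments for each mutant, ranked by ratio. Regions within 1 kb of a start were described besides, chosen after their values were seen. The members and lists were chosen with earlier results of these data known. Alternatives were other scalings, windows, thresholds and rules for joining peaks.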

Additional observations from a re-analysis of the deposited data

Results flagged for a closer look

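The lead region of CXCL12 (chr10:44352792-44353340) was singled out because its response to E2 differed between K303R and Y537S by a test of the difference itself. The E2 ratio was 3.43 in K303R and 0.925 in Y537S, a ratio of ratios of 3.71 (exact test on counts, Benjamini-Hochberg adjusted p over 33626 regions = 0.0322). It rests on 4 libraries, with 13 and 55 fragments in K303R and 65 and 68 in Y537S; K303R without E2 was the lowest of the 6. The receptor cannot be told apart from the name tag of the Y537S lists. Groups of 1 library were not searched for outlying samples.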

How the results depend on the processing

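No paired analysis was possible because the labels give no replicate numbers to pair samples by, and with 1 library per group no replicate could be left out. Treatments pair within a receptor, which the sign-flip test of listed regions used, and a fit of each region with receptors as blocks was not run. Scaling by the lowest local background moved most: E2 calls became 4 higher in WT, and 18 higher and 0 lower in K303R, calls for Y537S in both treatments 7 higher and 4 lower, and those for K303R 0 higher and 11 lower. The ratios of the whole series moved with that scale, and its shares of calls are not given here. Centred on the same chromosome, 5 regions were higher in Y537S in both treatments. With a mean of at least 20 fragments, 1 region was lower with E2 in WT and 2 in K303R. Joining peaks only where summits lay within 100 bases left 0 higher with E2 in WT. Centred on the median of the ratios, an alternative chosen after seeing the data, 1 was higher in K303R in both treatments. Ranking strong regions by fold instead of p left 16 genes near one in WT with E2. Every other count stayed within 1.5 times. Of the ratios of lead regions, 220 kept their side of the threshold with chromosome centring, with 2 calls gained and 2 lost, and 207 with background scaling, with 9 gained and 8 lost. None changed sign while called. Depth limits what can be called: the 95% interval of the E2 ratio in K303R ran from 1.85 to 6.85 at CXCL12 and from 0.703 to 0.923 at NHERF1.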

Other observations

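Among the regions listed with 1 receptor alone, the one with the most fragments lay in NHERF1 at chr17:74757435-74757812, listed with K303R only, with 159 and 152 fragments without and with E2. Its local background was 66.9 and 66.1 fragments, so it stood 2.36-fold and 2.28-fold above it by the authors' fold. In BCL2, chr18:63158208-63158493 was listed with Y537S only, with 51 and 52 fragments over a background of 10.1 and 11.1. In CELSR2, chr1:109252805-109253203 was also listed with Y537S only, with 55 and 39. Outside SIAH2, chr3:150770129-150770398 was listed with WT only, with 68 and 53 fragments.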
